A study of Caenorhabditis elegans with 10 samples.

Results

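The comparison described here is that of math-33(tm3561) nematodes moved to 25 °C with math-33(tm3561) nematodes kept at 15 °C, which are 2 of the 10 libraries of the series. The libraries were taken by their labels, and every named gene with a transcript of at least 200 bases entered. Of 21181 such genes, 14760 reached 1 FPKM (fragments per kilobase of transcript per M reads) in at least 2 of the 10 libraries and were compared. The other 6421 were left out, so genes silent in most libraries are not described.

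The series asked how loss of math-33 changes expression of the targets of DAF-16 in Caenorhabditis elegans. The gene math-33 encodes a deubiquitylating enzyme known to act on DAF-16, the FOXO transcription factor that the insulin/IGF-1 receptor DAF-2 holds in check. The series holds 5 genotypes at both temperatures: math-33(tm3561), the wild type N2, the receptor mutant daf-2(e1370), the double mutant daf-16(mu86);daf-2(e1370), and a double mutant of daf-2(e1370) with tm3561 (allele names are left out below). The deposited headers label the daf-2 allele ts, for temperature-sensitive. In every genotype that carries it, warmth and a loss of receptor function at 25 °C cannot be told apart. Each library came from about 3000 whole nematodes labelled as L4 or preadult. Populations were only partly synchronised and grew at 15 °C. At L3 or L4 they either stayed there or spent 22 hr at 25 °C, so temperature, time since the shift and developmental age cannot be told apart. Both libraries described carry the tm3561 allele, in an otherwise wild-type insulin pathway.

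Each group holds 1 library. A difference between the 2 math-33 libraries thus cannot be set against replicates, carries no p-value, and has an interval for counting error only. The math-33 libraries held 25.2 M reads at 15 °C and 31.2 M at 25 °C, recovered from the steps of the FPKM values. All 10 libraries lay between 25.2 and 35.2 M. The floor used for a gene at 0, which is 3 read pairs, corresponds to 0.238 and 0.192 FPKM in a transcript of 1000 bases in the 15 and 25 °C libraries. Because whole animals were sequenced, fewer cells of a type and less RNA per cell cannot be told apart in any value below. The math-33 transcript was at 15.9 FPKM at 15 °C and 14.1 at 25 °C in the single mutant, and at 14.35 and 13.9 in the daf-2;math-33 double mutant. In the 3 genotypes with the wild-type gene it lay between 59.8 and 79.3 FPKM, above all 4 libraries that carry tm3561.

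The nematode epidermis builds a new cuticle, largely of collagens, at each molt. Genes of the molting cycle, of the temporary apical matrix and of many collagens are known to be expressed in pulses, once per larval stage, and the heterochronic pathway ends these pulses when the animal becomes adult. Around that time the hermaphrodite germline switches from making sperm to making oocytes, and the intestine begins to make yolk proteins. Warmth is also known to induce chaperone genes through the factor HSF-1.

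In math-33 817 genes (5.54%) were at least 1 log2 unit higher at 25 °C than at 15 °C and 865 (5.86%) were at least 1 log2 unit lower, on the log2(FPKM + 1) scale used for every difference (called a shift) below. Paired levels are given with the 15 °C library first. Genes of sperm, yolk and eggshell stood among the higher ones, and genes of the molting cycle, the apical matrix and the larval cuticle among the lower ones. Adult collagens stood in both. The counting interval of the fold excluded 1 in 797 of the higher genes and 846 of the lower ones. A difference of 2 log2 units was reached by 48 genes upward and by 185 downward. The median shift over all tested genes was 0.03.

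Upward and downward differences were thus nearly equal in number in math-33, with 48.6% of them upward. In N2 1828 genes (12.4%) were higher and 412 (2.79%) lower, so 81.6% of the differences were upward. The daf-2 pair had 1587 higher (10.8%) and 378 lower (2.56%). The daf-2;math-33 pair had 1385 (9.38%) and 266 (1.8%), and the daf-16;daf-2 pair 1352 (9.16%) and 434 (2.94%). Between 75.7% and 83.9% of the differences were upward in these 4 genotypes. Whole libraries were also shifted: the library median of log2(FPKM + 1) was 0.18 to 0.23 higher at 25 °C in the other 4 genotypes and 0.03 higher in math-33. After centring each library on its median, math-33 had 750 genes higher and 926 lower (44.7% upward), N2 1421 and 879, daf-2 1044 and 717, daf-2;math-33 982 and 473, and daf-16;daf-2 832 and 737. Of the 865 lower genes, 600 were at least 1 log2 unit lower in none of the other 4 genotypes and 17 were so in all of them. Of the 817 higher genes, 131 were higher in none of the others and 121 in all 4. In each other genotype only 1.8 to 2.94% of tested genes were lower, and 9.16 to 12.4% were higher. Fewer lower than higher genes could thus be shared, and these counts do not show differences particular to math-33. The matching share over all tested genes was not counted.

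**Figure D1:**
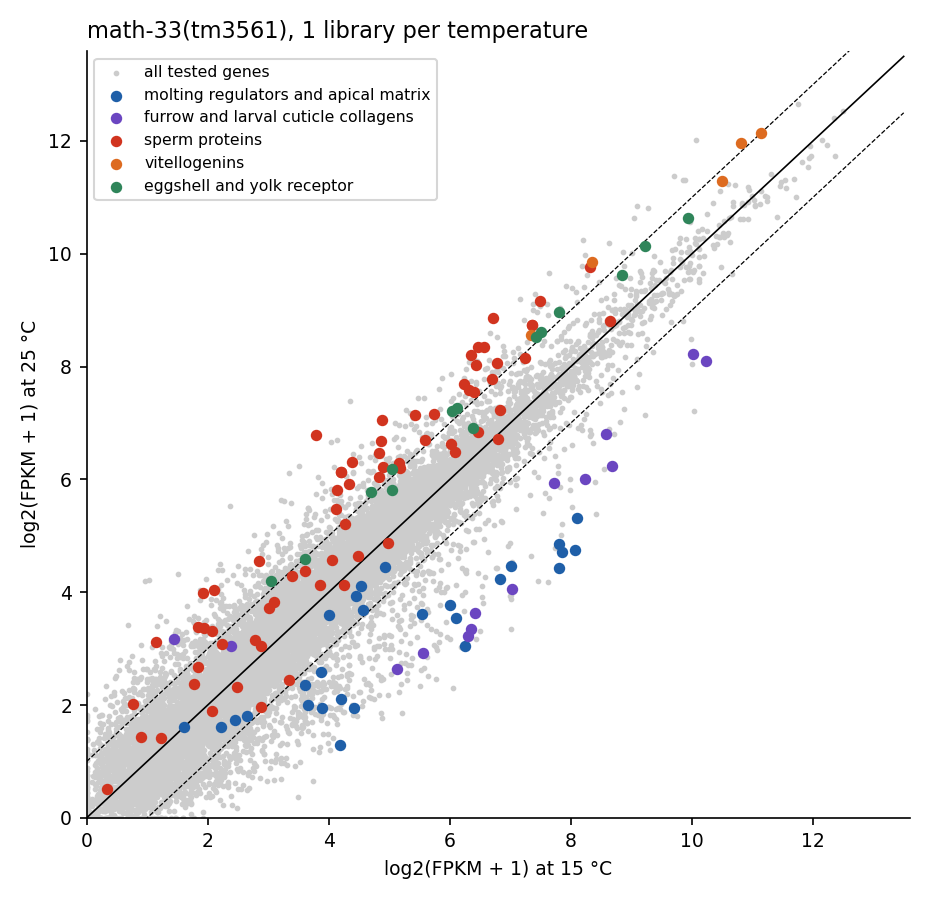
Level of each of 14760 genes in the math-33(tm3561) library at 15 °C (horizontal axis) and at 25 °C (vertical axis), both as log2(FPKM + 1), with 5 gene lists coloured; the solid line marks equal levels and the dashed lines a difference of 1 log2 unit. Most genes of molting and larval collagens lie below the line, in part by more than 2 log2 units, and most of those of sperm, yolk and eggshell above it; the sperm list has 7 of 68 below, and dpy-14, dpy-17 and bli-5 lie above.

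Molting regulators and apical matrix genes were lower at 25 °C in math-33. Of 27 tested, 18 were at least 1 log2 unit lower and 0 higher, with a median shift of -1.94. The same genes had medians of -0.70 in N2, -0.07 in daf-2, -0.35 in daf-2;math-33 and -0.44 in daf-16;daf-2. Their summed level was 1937 FPKM at 15 °C, just under the 1987 to 3421 FPKM of the other genotypes, and 325 FPKM at 25 °C, where the others held 1400 to 2300 FPKM. At 15 °C 13 of the 27 were below the range of the other 4 genotypes, and at 25 °C 26 were. Of all tested genes 22.3% and 27.4% were.

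The apical matrix gene noah-1, which encodes a zona pellucida domain protein that attaches the cuticle to the epidermis, was at 231.2 FPKM at 15 °C and 25.4 at 25 °C in math-33. It went from 314.5 to 165.0 FPKM in N2, 234.0 to 176.4 in daf-2, 275.9 to 141.2 in daf-2;math-33, and 454.3 to 314.4 in daf-16;daf-2. The math-33 library at 15 °C stood just under the lowest of the other 15 °C libraries, and that at 25 °C was far under every other library. The level at 25 °C was 9.11-fold lower than at 15 °C (counting interval 8.59 to 9.68). Its partner gene noah-2 was 7.94-fold lower (222.7 to 28.1 FPKM, interval 7.42 to 8.50).

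The lowest shift of the list was that of lpr-3, which encodes a lipocalin-related protein, at 222.2 FPKM at 15 °C and 20.5 at 25 °C (10.9-fold, 9.93 to 11.9). The related gene lpr-4, which is not on the list, was at 196.5 and 17.2 FPKM. The protease inhibitor gene mlt-11, needed for molting, was at 74.8 and 7.26 FPKM (10.3-fold lower, 9.54 to 11.1), with 45.3 to 99.1 FPKM in the other 25 °C libraries. Molting genes mlt-8 (272.8 to 38.6 FPKM) and mlt-10 (67.4 to 10.7), acn-1 (113.1 to 17.9), a relative of angiotensin-converting enzyme, and fbn-1 (20.3 to 2.85), which encodes a fibrillin-related matrix protein, had shifts between -2.46 and -2.79. In every one of these the math-33 library at 25 °C was the lowest of the 10, as it was for 24 of the 27 genes against 20.5% of all tested genes.

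The transcription factors of the list differed less. The factor gene nhr-23, which drives the molting cycle, was at 29.6 FPKM at 15 °C and 20.9 at 25 °C in math-33, a shift of -0.48, and its 25 °C level lay inside the 19.9 to 26.1 FPKM of the other genotypes. The gene nhr-25 was at 3.67 and 2.07 FPKM, where the other genotypes held 11.6 to 13.3 and 3.36 to 8.45, so it was already below all of them at 15 °C. Grainyhead grh-1 (11.7 to 3.01 FPKM, shift -1.66) and blmp-1 (13.56 to 4.99, shift -1.28) were lower. The metalloprotease genes nas-36 and nas-37, used to shed the old cuticle, had shifts of -1.25 and -0.87. The highest shift of the list was that of bli-5, a protease inhibitor gene, at 0.01 (2.04 and 2.07 FPKM).

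Furrow and larval cuticle collagens showed the lowest median of the cuticle lists. These proteins form the circumferential furrows or shape the body, and mutants are dumpy or squat. Of 14 tested, 12 were lower and 1 was higher, with a median shift of -2.34 against medians of -0.50 to 0.26 in the other 4 genotypes. The sum of the 14 was 4009 FPKM at 15 °C and 951 at 25 °C in math-33, and 4178 to 6373 and 3870 to 5066 FPKM in the others. For dpy-10 math-33 had 129.7 and 15.6 FPKM, N2 150.8 and 79.2, daf-2 112.3 and 87.5, daf-2;math-33 152.7 and 70.2, and daf-16;daf-2 199.0 and 153.3. At 15 °C math-33 lay inside the range of the others, and at 25 °C it lay below all of them.

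All 6 of the furrow collagen genes dpy-2, dpy-3, dpy-7, dpy-8, dpy-9 and dpy-10 were lower, with shifts from -2.49 in dpy-9 to -3.08 in dpy-2 (78.1 to 8.39 FPKM). The dpy-10 fold was 8.30 (7.26 to 9.54). More abundant collagens were lower by less: sqt-1 was at 410.6 and 74.3 FPKM, dpy-5 at 1202 and 274, dpy-4 at 1042 and 298, and dpy-13 at 383.5 and 110.4 (3.47-fold, 3.28 to 3.68). Against these, dpy-14 was at 1.73 and 8.00 FPKM (shift 1.72) and dpy-17 at 4.24 and 7.25 (shift 0.65), each the highest of the 10 libraries at 25 °C. Both were also higher at 25 °C in each of the other 4 genotypes.

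The list of 8 adult cuticle collagens, which also holds the body-shape genes rol-6 and lon-3, divided into lower and higher members. By at least 1 log2 unit, 4 were lower and 2 higher, and the median was -1.11, where the other 4 genotypes had medians of 0.35 to 1.15. The genes bli-1 and bli-2, whose collagens form the struts between the layers of the adult cuticle, were at 92.9 and 160.5 FPKM at 15 °C and at 13.04 and 23.95 at 25 °C. At 15 °C these were the highest of the 15 °C libraries (22.6 to 66.1 and 37.5 to 108.6 FPKM in the others) and at 25 °C the lowest of all 10. Both genes had shifts above 0 in each other genotype, 0.18 to 2.44 for bli-1 and 0.23 to 2.52 for bli-2. The body-shape collagen gene rol-6 was at 126.7 and 28.4 FPKM (shift -2.12, others -0.91 to 0.31), and lon-3 is described with the tested differences.

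The adult collagen gene col-19, a standard marker of adult epidermis that LIN-29 activates, went the other way. It went from 293.7 to 1216 FPKM in math-33, 109.3 to 409.9 in N2, 141.3 to 343.5 in daf-2, 262.1 to 572.3 in daf-2;math-33, and 114.0 to 339.3 in daf-16;daf-2. Every genotype was higher at 25 °C, and math-33 at 25 °C was the highest of the 10 libraries. The fold in math-33 was 4.14 (3.99 to 4.30). A like pattern was seen in col-119, at 925.8 and 2537 FPKM (shift 1.45), where the other 25 °C libraries held 703 to 1024 FPKM. The remaining members col-7 (11.2 and 10.4 FPKM) and col-62 (9.12 and 11.8) were within 0.34 log2 units of no difference.

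**Figure D2:**
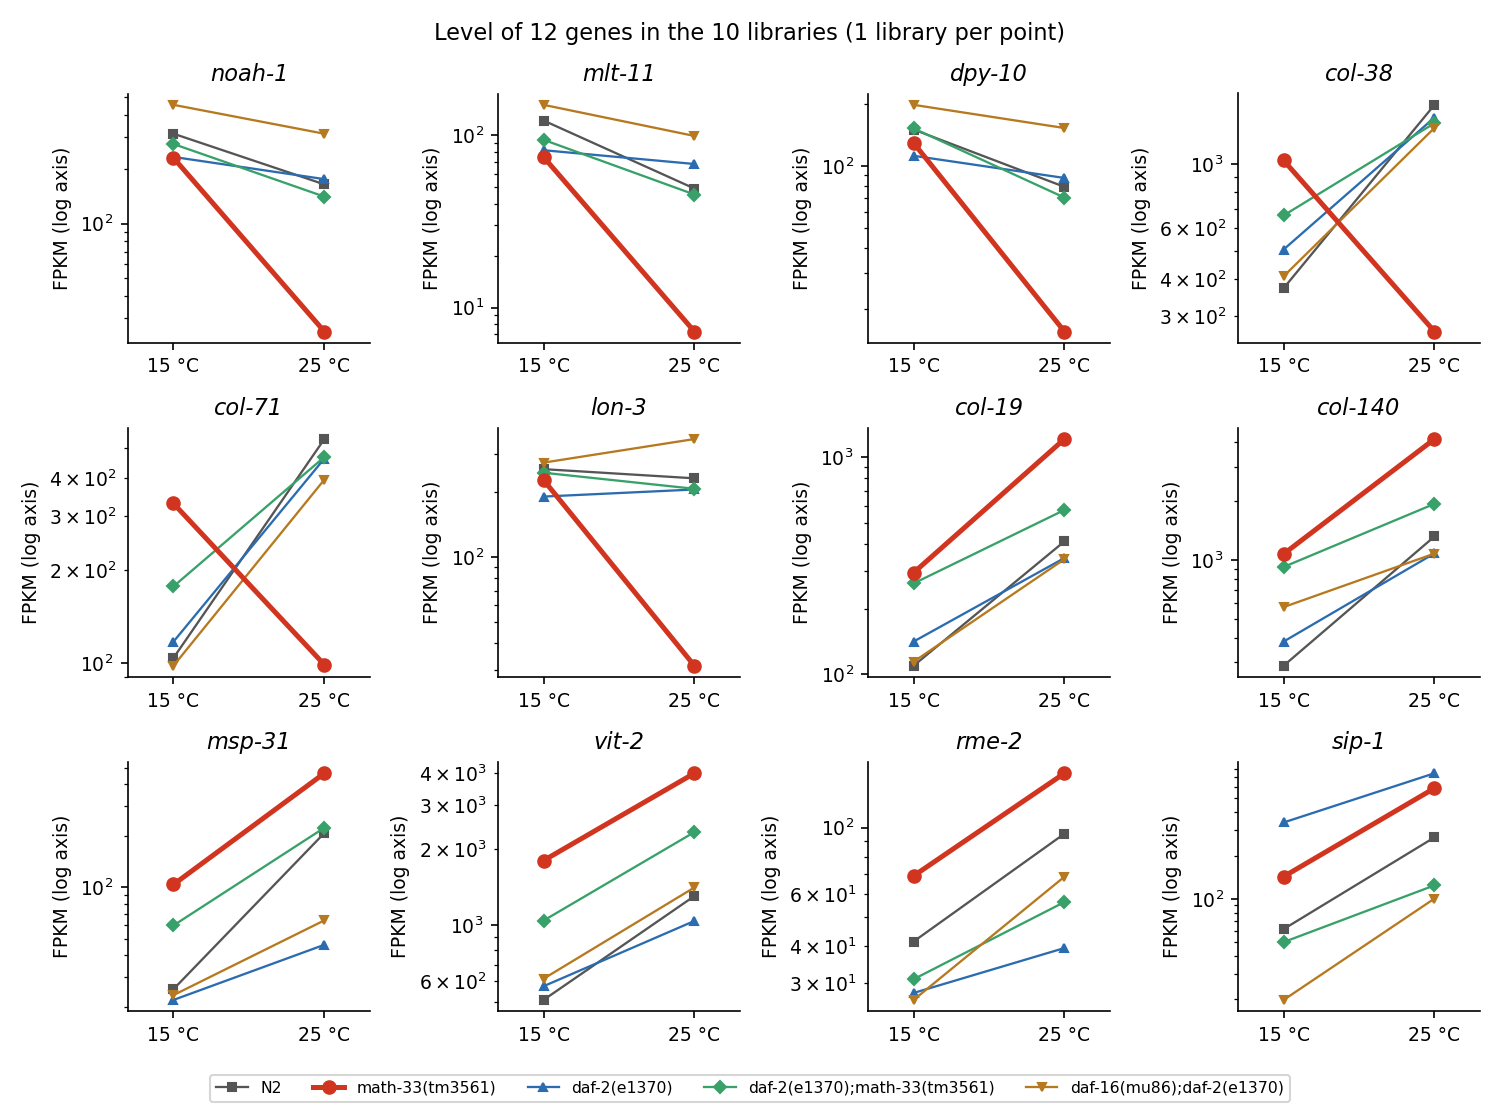
Level in FPKM (log axis) of 12 genes at 15 and 25 °C, with 1 line per genotype and 1 library per point. The thick red line, math-33(tm3561), drops below every other 25 °C library for noah-1, mlt-11, dpy-10, col-38, col-71 and lon-3, ends above every other library for col-19, col-140, msp-31, vit-2 and rme-2, and stays under daf-2(e1370) for sip-1.

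The col family of cuticle collagens split in the same manner over a wider set. Of 142 tested genes 44 were lower and 25 higher in math-33, and the median shift was -0.39 against 0.28 to 0.68 in the other 4 genotypes (0.07 to 0.45 there, and -0.42 in math-33, after median centring). The family sum nonetheless was 22513 FPKM at 15 °C and 35095 at 25 °C, inside the 29375 to 39556 FPKM of the other 25 °C libraries. The 44 lower genes together had 9540 FPKM at 15 °C and 3211 at 25 °C, and the 25 higher genes 9157 and 27672. Reads of near-identical collagen genes may be divided among copies, so single col values are uncertain.

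The 25 higher genes were also higher in the other genotypes, whose medians over them were 1.04 to 1.83 beside 1.55 in math-33, and 21 of the 25 had shifts above 0 in all 4. At 25 °C 20 of the 25 stood above the range of the other genotypes, which follows in part from choosing them by their math-33 shift. Of all 142 tested col genes 24 did, against 29.6% of all tested genes. Besides col-19, col-80 was at 198.8 and 804.9 FPKM (4.05-fold, 3.87 to 4.23), col-140 at 1075 and 4159, col-179 at 168.2 and 622.8, col-124 at 542.5 and 1834, and col-20 at 830.0 and 2672. In the other 25 °C libraries col-140 lay between 1080 and 1939 FPKM. For these 5 genes the math-33 library at 25 °C was the highest of the 10.

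The 44 lower genes had a median of -1.48 in math-33 and medians of 0.08 to 0.48 in the others. Of these, 17 had shifts above 0 in all 4 other genotypes and 8 had shifts below 0 in all 4. In math-33 every one of the 44 was below the other 25 °C libraries. The 44 were chosen by their math-33 shift, so their median and this place at 25 °C follow in part from that choice. Of all 142 tested col genes 88 were below the other 25 °C libraries, against 27.4% of all tested genes. For col-38 math-33 was at 1027 FPKM at 15 °C and 264.8 at 25 °C, while N2 was at 373.2 and 1595, daf-2 at 507.1 and 1442, daf-2;math-33 at 664.1 and 1379, and daf-16;daf-2 at 410.1 and 1329. At 15 °C math-33 was the highest of the 5 genotypes, and at 25 °C it was the lowest of the 10 libraries. The shift was -1.95, and 1.05 to 2.09 in the others. The gene col-63 had the same crossing (252.8 and 63.5 FPKM, shift -1.98, others 1.02 to 2.46). Other col genes were lower in all genotypes, such as col-128 (28.3 and 2.43 FPKM, shift -3.10, others -1.56 to -0.22), while col-41 (45.1 and 5.14 FPKM, shift -2.91) was within the others' -2.91 to -1.21.

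**Figure D3:**
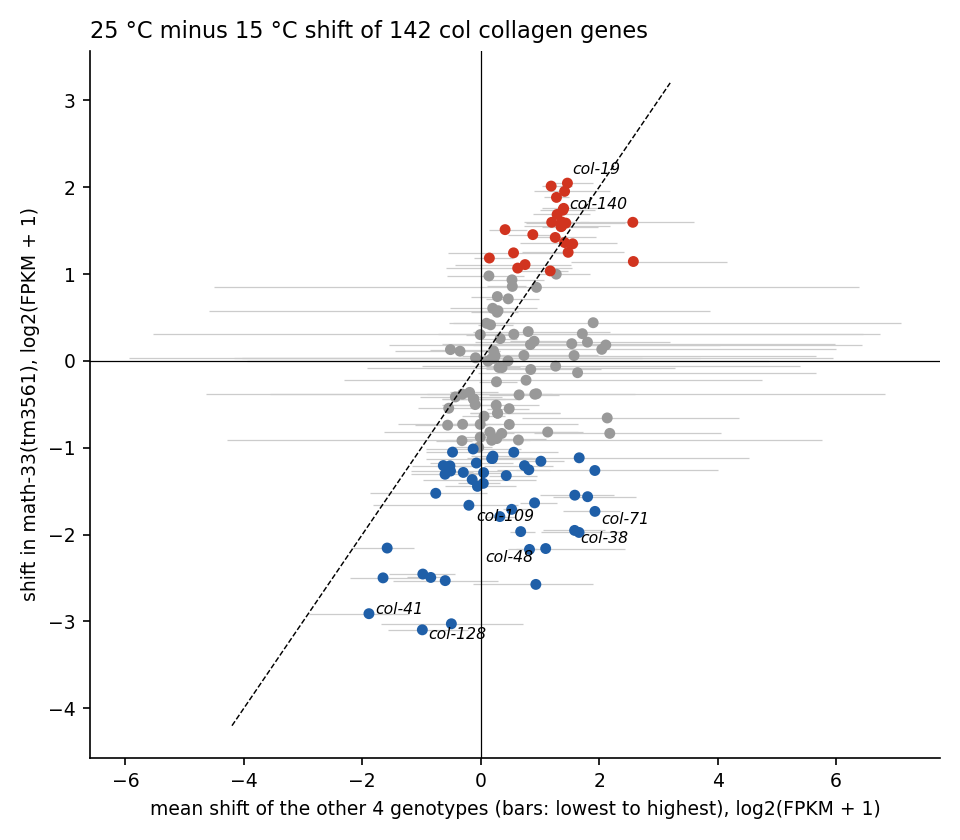
Shift of 142 col collagen genes in math-33(tm3561) (vertical axis) against the mean shift of the other 4 genotypes (horizontal axis, with bars from the lowest to the highest of the 4), in log2(FPKM + 1), 25 °C minus 15 °C; the dashed line marks equal shifts. The 25 red genes, at least 1 log2 unit higher in math-33, lie near the line, and the 44 blue genes, at least 1 log2 unit lower, lie below it, 17 of them with bars wholly to the right of 0.

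Hedgehog-related and patched-related genes, many of which are expressed in the epidermis and needed for molting and apical matrix, were mostly lower. Of 72 tested genes 29 were lower and 1 higher, with a median of -0.61 against -0.34 to 0.20 in the other genotypes (-0.54 to -0.02 there, and -0.64 in math-33, after median centring). At 15 °C 29 were below the range of the other genotypes and at 25 °C 55 were. The warthog gene wrt-10 went from 174.5 to 17.4 FPKM in math-33 (10.1-fold lower, 8.71 to 11.7), 281.3 to 127.2 in N2, 225.7 to 170.8 in daf-2, 229.0 to 108.5 in daf-2;math-33, and 340.9 to 302.5 in daf-16;daf-2. Math-33 was the lowest genotype at both temperatures, by a wider gap at 25 °C. The patched-related gene ptr-4 was at 89.3 and 8.92 FPKM, the ground-like gene grl-15 at 126.4 and 14.4, and the hedgehog-related gene qua-1 at 52.6 and 7.404. The 1 higher gene was grd-3 of the groundhog family, at 24.7 and 83.3 FPKM (others 31.6 to 66.2 and 46.9 to 178.6). The patched gene ptc-1, which acts in the germline, was at 78.0 and 106.0 FPKM, the highest of the 10 libraries at 25 °C.

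Heterochronic timing genes, which order larval stages and end the molting cycle, had 5 of 12 lower and 0 higher. Their median of -0.58 was close to that of N2, -0.58, and lower than those of the other 3 genotypes, -0.39 to -0.09. The period homologue lin-42, whose transcript cycles with the molts, had the largest difference, from 127.4 to 20.98 FPKM (6.08-fold, 5.35 to 6.92), with 106.3 to 129.8 FPKM in the other 25 °C libraries. The factor gene lin-29 went from 11.1 to 4.32 FPKM in math-33, 12.9 to 8.80 in N2, 14.8 to 8.51 in daf-2, 14.6 to 8.56 in daf-2;math-33, and 16.9 to 14.7 in daf-16;daf-2. It was lowest in math-33 at both temperatures and lower at 25 °C in every genotype. Its cofactor gene mab-10 was at 46.1 and 15.9 FPKM, and dre-1, an F-box gene of the pathway, at 47.1 and 17.7. The larval-fate genes lin-28 (36.9 and 49.8 FPKM) and lin-41 (40.6 and 63.3) were the highest of the 10 libraries at 25 °C, with shifts of 0.42 and 0.63. lin-41 also acts in oocytes.

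**Figure D4:**
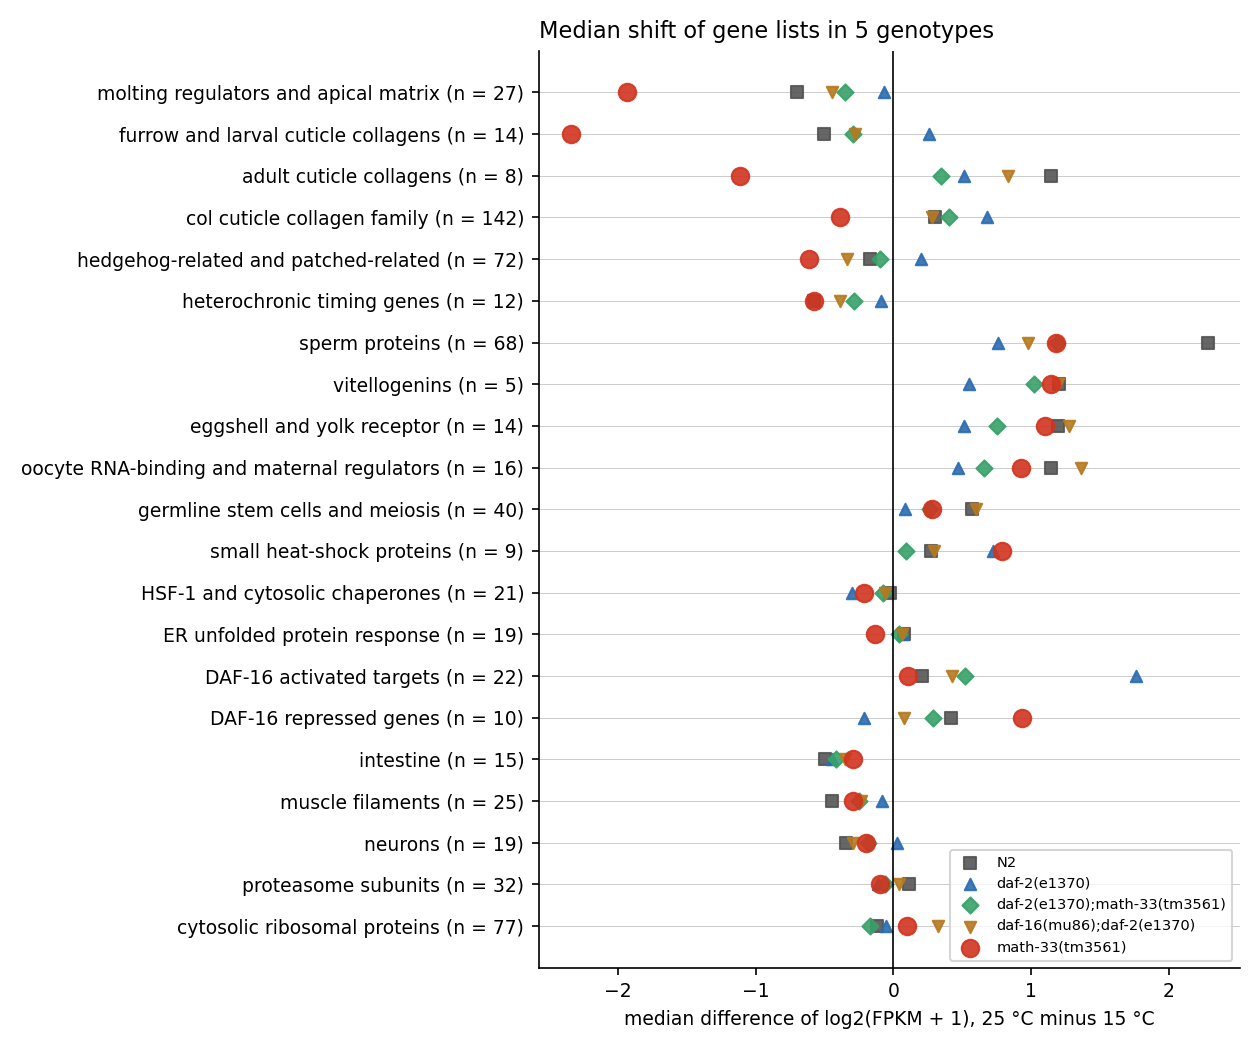
Median shift of 21 gene lists (the number of tested genes in parentheses) in each of 5 genotypes, as the difference of log2(FPKM + 1), 25 °C minus 15 °C, with 1 library per temperature. Math-33(tm3561), the large red circle, lies left of all other genotypes for molting, furrow, adult cuticle, col and hedgehog-related lists, and among them for vitellogenins, eggshell, oocyte, germline, muscle and neuron lists. It is also leftmost for the ER unfolded protein response and DAF-16 activated lists, and close to N2 for heterochronic genes. It is rightmost for small heat-shock, DAF-16 repressed and intestine lists.

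Sperm genes were higher at 25 °C in math-33, from a level that was already high at 15 °C. Of 68 tested genes 39 were higher and 0 lower, with a median of 1.18. The medians were 2.28 in N2, 0.76 in daf-2, 1.19 in daf-2;math-33 and 0.98 in daf-16;daf-2. Their sum was 3407 FPKM at 15 °C and 8146 at 25 °C, and the other genotypes held 525 to 1897 and 946 to 4440 FPKM. At 15 °C 65 of the 68 stood above the range of the others (35.9% of all tested genes did), and at 25 °C 52 did (29.6%). Reads of the near-identical msp, ssp and nspd genes may be divided among copies, so these counts may not be of separate observations.

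Within the list the structural sperm families and the genes of sperm development parted. Of 30 msp genes, which encode the major sperm protein, 21 were higher (median 1.41), and of 20 ssp and nspd genes, which encode small sperm proteins, 15 were higher (median 1.36). Of the other 18, mostly spe genes, 3 were higher and 5 had shifts below 0 (median 0.22, with 0.79 to 1.75 in the other genotypes). For msp-31 math-33 was at 103.9 and 465.4 FPKM, N2 at 25.4 and 208.0, daf-2 at 21.9 and 46.1, daf-2;math-33 at 59.9 and 223.3, and daf-16;daf-2 at 23.4 and 64.1. Math-33 was the highest at both temperatures. The presenilin-related gene spe-4, which acts in sperm organelles, went from 30.7 to 28.1 FPKM in math-33, 12.07 to 32.5 in N2, 8.51 to 12.04 in daf-2, 14.002 to 39.3 in daf-2;math-33, and 8.45 to 19.3 in daf-16;daf-2. It was thus highest in math-33 at 15 °C and within the range of the others at 25 °C. The sperm membrane fusion gene fer-1 was at 9.19 and 4.46 FPKM (shift -0.90, others 0.01 to 1.0003).

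The sperm-fate genes fog-1 and fog-3 differed little between the 2 math-33 libraries. The gene fog-3 went from 22.2 to 21.3 FPKM in math-33, 18.8 to 21.8 in daf-2;math-33, 9.36 to 2.12 in N2, 10.5 to 8.401 in daf-2, and 7.395 to 8.47 in daf-16;daf-2. Both genotypes with tm3561 were above the other 3 at both temperatures. The gene fog-1 was at 53.997 and 65.8 FPKM in math-33, with 21.7 to 40.0 FPKM in the other 15 °C libraries and 10.9 to 55.6 in the other 25 °C libraries.

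Yolk, eggshell and oocyte genes were higher at 25 °C in math-33, as in the other genotypes. Of 5 vitellogenins, the yolk protein genes of the intestine, 4 were higher, with a median of 1.15 (others 0.55 to 1.21). For vit-2 math-33 was at 1805 and 3998 FPKM, N2 at 507.3 and 1307, daf-2 at 574.6 and 1042, daf-2;math-33 at 1045 and 2339, and daf-16;daf-2 at 615.3 and 1413. Math-33 was the highest genotype at both temperatures, and its 15 °C library stood above every library of the other genotypes but daf-2;math-33 at 25 °C. The fold of 2.22 (2.20 to 2.23) equals a shift of 1.15, inside the others' 0.86 to 1.36. The remaining 4 vitellogenins were likewise highest at 25 °C in math-33, from vit-4 (160.7 and 375.5 FPKM) to vit-6 (2249 and 4515).

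Of 14 eggshell genes, taken with the yolk receptor gene rme-2, 8 were higher and 0 lower (median 1.098, others 0.51 to 1.28), and all 14 stood above the other genotypes at both temperatures. The oocyte gene rme-2 went from 68.9 to 152.4 FPKM in math-33, 41.5 to 95.5 in N2, 27.9 to 39.4 in daf-2, 30.97 to 56.3 in daf-2;math-33, and 26.4 to 68.5 in daf-16;daf-2. Math-33 led at both temperatures with a shift inside those of the others (1.13 against 0.49 to 1.34). The chondroitin proteoglycan gene cpg-2 was at 223.7 and 502.7 FPKM, and the chitin synthase gene chs-1 at 32.0 and 71.9. Of 16 oocyte RNA-binding and maternal genes 6 were higher and 0 lower (median 0.92, others 0.47 to 1.36). Among them puf-3 was at 51.3 and 127.0 FPKM, pie-1 at 8.67 and 25.6, and oma-1, a regulator of oocyte maturation, at 112.6 and 183.8.

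The 40 germline stem cell and meiosis genes had a median of 0.28, with 2 higher and 0 lower. Their sum was 1777 and 2206 FPKM in math-33, and 1078 to 1443 and 1441 to 1929 in the others. The stem cell gene sygl-1, a target of germline Notch signalling, went from 22.6 to 58.0 FPKM in math-33, 28.2 to 28.5 in N2, 26.003 to 24.5 in daf-2, 22.8 to 23.8 in daf-2;math-33, and 16.408 to 23.7 in daf-16;daf-2. The 25 °C math-33 library stood above all the others, which lay close together. The meiotic double-strand break gene spo-11 was at 16.9 and 40.1 FPKM, a shift that the other genotypes also had. Of 49 early embryonic genes 40 did not pass the filter, the endoderm gene end-1 among them, and the 9 that did included pes-1 at 0.201 and 2.15 FPKM.

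Some small heat-shock genes were higher, and few genes of the other stress lists differed by 1 log2 unit. Of 9 small heat-shock genes 4 were higher and 0 lower in math-33 (median 0.79, others 0.09 to 0.72; the lowest, daf-2;math-33, became -0.09 after median centring), and 3 had shifts below 0, the lowest being hsp-12.2 at 36.9 and 19.9 FPKM (shift -0.86). The gene sip-1, which encodes a small heat-shock protein of the reproductive system, went from 142.7 to 587.8 FPKM in math-33, 61.6 to 267.6 in N2, 339.4 to 746.9 in daf-2, 50.02 to 124.1 in daf-2;math-33, and 19.8 to 100.5 in daf-16;daf-2. Every genotype was higher at 25 °C, and math-33 ranked below daf-2 at both temperatures. hsp-16.2 and hsp-16.41, the classic heat-shock reporters, were at 0 at 15 °C and at 1.03 and 1.64 FPKM at 25 °C. With the 15 °C library set to the floor of 3 pairs this is 1.88-fold and 2.96-fold higher. The values rest on 7 and 11 pairs at 25 °C, and the lower limits of the counting intervals are 1.16 and 2.03.

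Of 21 HSF-1 and cytosolic chaperone genes 0 differed by 1 log2 unit (median -0.21, others -0.30 to -0.02). hsf-1 itself was at 43.1 and 45.3 FPKM. The inducible chaperone gene hsp-70 went from 0.309 to 1.096 FPKM in math-33, 0.016 to 1.496 in N2, 0.236 to 9.42 in daf-2, 0.240 to 0.640 in daf-2;math-33, and 0.184 to 1.17 in daf-16;daf-2, so all but daf-2 stayed below 2 FPKM. Of 19 genes of the endoplasmic reticulum stress response 1 was lower, the thioredoxin-fold gene dnj-27 (57.0 and 20.1 FPKM), and 0 higher. Their median was -0.13 in math-33 and 0.04 to 0.08 in the others. After median centring it was -0.165 in math-33 and -0.157 to -0.137 in the others. The chaperone gene hsp-4, the usual reporter of that response, was at 121.4 and 149.5 FPKM (shift 0.30, others 0.34 to 0.90). hsp-6, its mitochondrial counterpart, was at 380.3 and 352.0 FPKM.

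Of the targets that DAF-16 is known to activate, most differed by less than 1 log2 unit between the math-33 libraries. Of 22 activated targets 5 were higher and 0 lower in math-33, where 5.54% of all tested genes were higher and 5.86% lower. N2 had 4 higher and 2 lower, daf-2;math-33 6 and 0, daf-16;daf-2 3 and 0, and daf-2 16 and 1. The median in math-33 was 0.11, near the 0.03 of all tested genes. It was 1.76 in daf-2 and 0.21 to 0.52 in the others (N2 became -0.02 after median centring). The superoxide dismutase gene sod-3 was at 4.02 FPKM at 15 °C and 5.90 at 25 °C in math-33, where daf-2 had 16.97 and 153.1. The metallothionein gene mtl-1 was at 10.8 and 24.1 FPKM, where daf-2 had 9.34 and 553.9. The interval of the 1.47-fold difference of sod-3 in math-33, 0.944 to 2.32, includes no difference. Higher in math-33 were sip-1, lea-1 (43.5 and 173.0 FPKM), a desiccation-protection gene, hsp-12.3, mtl-1 and hsp-16.2. The noncoding RNA gene tts-1 was at 297.4 and 328.6 FPKM, and daf-16 at 109.3 and 93.6.

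Of 10 genes repressed by DAF-16, 5 were higher in math-33 and 0 lower (median 0.94, others -0.21 to 0.42, with daf-16;daf-2 moving from 0.08 to -0.12 under median centring). vit-2 is one of them. The immune gene dod-24 went from 4.11 to 12.5 FPKM in math-33, 12.01 to 3.13 in N2, 3.62 to 0.563 in daf-2, 17.98 to 4.83 in daf-2;math-33, and 13.98 to 3.17 in daf-16;daf-2. It was higher at 25 °C in math-33 and lower in the other 4 genotypes, with a shift of 1.41 against -1.84 to -1.56. The difference, 3.10, did not pass limma's threshold over all genes (adjusted p 0.053). The insulin-like gene ins-7 was at 0.252 and 4.07 FPKM, which rests on 1 and 20 read pairs (16.14-fold, 2.58 to 669).

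Genes of muscle, neurons and intestine held few differences of 1 log2 unit. Of 25 muscle filament genes 0 differed by 1 log2 unit (median -0.29), and of 19 neuronal genes 0 did (median -0.20). Of 15 intestinal genes 2 were lower, the intestinal regulator elt-2 (18.1 and 8.38 FPKM) and the protease gene cpr-1 (318.0 and 116.0). The summed level of the muscle list was 12943 and 9851 FPKM in math-33 (others 14472 to 16809 and 12589 to 16738). The intestinal list had 7990 and 6171 FPKM (others 10542 to 11873 and 7064 to 8953), and the neuronal list 474 and 420 (others 564 to 574 and 427 to 610). No gene of these 3 lists was at 0 in either math-33 library. At both temperatures the sums of the germline, oocyte and eggshell lists were higher, and the sums of these 3 somatic lists lower, in math-33 than in every other genotype; the part of this in the shifts was not tested. The 32 proteasome and 23 deubiquitylating enzyme genes had medians of -0.09 and 0.20, with 0 past 1 log2 unit.

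Which genes shifted differently in math-33 was tested with limma, in a model of genotype, temperature and a term for math-33 at 25 °C over the 10 libraries. The spread came from the 3 degrees of freedom that the other 4 genotypes leave after a shared temperature term, so the single math-33 pair is assumed to vary as they do. At an adjusted p of 0.05, 0 genes (0.0%) had a higher shift in math-33 and 6 genes (0.0407%) a lower one. Without adjustment 141 genes (0.955%) lay above and 952 (6.45%) below at p under 0.05. In simulated data of the same design, the test found 37% of shifts of 2 log2 units and 75% of shifts of 4. Each genotype has its own term and 1 library per temperature, so leaving out either library removes that genotype's whole shift from the fit. The estimated difference is thus the same whichever of the 2 libraries is left out, and why the calls can differ was not tested. Leaving out the daf-2 library at 25 °C gave 15 lower genes, and leaving out any 1 of the other 7 libraries of those 4 genotypes gave 0.

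Of the 6 genes, 4 encode cuticle collagens by name or known role. The col family gave 3 of them, and 142 of the 14760 tested genes. By position col-48 overlaps mek-2, col-71 overlaps Y49F6B.15 and lon-3 overlaps ogdh-2, so their reads may be shared. The gene col-48 (chromosome I, 3010692 to 3011609 in ce10) went from 295.5 to 64.8 FPKM in math-33, 219.1 to 404.3 in N2, 172.6 to 334.1 in daf-2, 238.7 to 361.7 in daf-2;math-33, and 192.9 to 353.6 in daf-16;daf-2. It was the highest at 15 °C and the lowest of the 10 at 25 °C in math-33. The difference in shift from the other genotypes was -2.995 ± 0.23 (SE) (limma adjusted p 0.0348). The gene col-109 (chromosome IV, 1817657 to 1820249) was at 198.4 and 50.1 FPKM in math-33, with 148.6 to 182.6 and 246.7 to 289.0 FPKM in the others, a difference in shift of -2.64 ± 0.24 (limma adjusted p 0.0383). It too went from the highest of its temperature to the lowest.

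The gene col-71 (chromosome II, 3500150 to 3502447) had the largest difference in shift, -3.66 ± 0.35 (limma adjusted p 0.041). It went from 330.0 to 98.6 FPKM in math-33, 103.8 to 534.9 in N2, 117.2 to 462.1 in daf-2, 177.3 to 467.6 in daf-2;math-33, and 97.8 to 394.7 in daf-16;daf-2. The lines of math-33 and the other 4 cross in the plot of single genes. The collagen gene lon-3 (chromosome V, 12197491 to 12198549), which affects body length, went from 227.5 to 31.5 FPKM in math-33, 255.2 to 231.5 in N2, 190.6 to 205.5 in daf-2, 245.7 to 207.1 in daf-2;math-33, and 273.6 to 351.7 in daf-16;daf-2. At 15 °C math-33 lay among the others and at 25 °C 7.23-fold lower than at 15 °C (6.56 to 7.98), while the others stayed within -0.25 to 0.36 (difference -2.84 ± 0.28, limma adjusted p 0.0425).

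The other 2 genes carry sequence names. E01G4.6 (chromosome II, 13482336 to 13485597) went from 253.6 to 55.2 FPKM in math-33, 81.1 to 243.5 in N2, 76.8 to 204.6 in daf-2, 141.8 to 259.5 in daf-2;math-33, and 73.0 to 234.3 in daf-16;daf-2. It crossed the other genotypes as col-71 did (difference -3.56 ± 0.33, limma adjusted p 0.0383). Y11D7A.5 (chromosome IV, 9244677 to 9245448) was at 71.6 and 7.12 FPKM in math-33 and between 30.9 and 57.6 FPKM in the other 8 libraries (difference -3.51 ± 0.29, limma adjusted p 0.0348). Its 25 °C level was 10.2-fold lower than that at 15 °C (7.62 to 13.8).

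Genes with crossed shifts form a wider set by description. In all, 70 genes were at least 1 log2 unit lower in math-33 and above 0 in each other genotype, and 3 showed the opposite. With a margin of 0.5 log2 units in each other genotype, 23 genes remained of the former and 1, dod-24, of the latter. The share of all tested genes above or below 0 in each other genotype was not counted. Between 75.7% and 83.9% of the differences of 1 log2 unit there were upward, so the counts show no asymmetry particular to math-33. Of the 23, 10 were col genes (col-14, col-38, col-48, col-49, col-63, col-71, col-97, col-104, col-109 and col-138), and rol-1 and bli-6, named for cuticle mutants, were among the rest. Of all 14760 tested genes 142 were col genes. The 23 were chosen by the math-33 shift itself, and col copies may share reads, so this count is a description. Of the furrow and larval collagens 12 of 14 had an unadjusted limma p under 0.05 for a lower shift, against 6.45% of all tested genes.

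Most genes with a temperature response shared by the other 4 genotypes shifted in the same direction in math-33. In limma over the 8 other libraries 2061 genes (14%) were higher and 557 (3.77%) lower at 25 °C. After centring libraries on their medians 1279 were higher and 1615 lower. The math-33 libraries took no part in that test. All genotypes in it but N2 carry the temperature-sensitive daf-2 allele. Of the 2061, 1778 (86.3%) had a shift above 0 in math-33 (52.5% of all tested genes did), 488 were at least 1 log2 unit higher and 35 at least 1 lower. The median was 0.59, and 0.83 to 1.27 in the genotypes used for the test, whose shifts chose the genes, so these medians are not measured on equal terms and were not compared by a test. Of the 35, 13 were col genes, as were 142 of the 14760 tested genes. Of the 557 lower genes 521 (93.5%) were below 0 in math-33 (47.2% of all), 179 by at least 1 log2 unit, and the median was -0.67, beside -0.73 to -0.66 in the others. With centred values over the same genes the medians were 0.56 upward (others 0.60 to 1.04) and -0.70 downward (others -0.96 to -0.86). Leaving out a daf-2;math-33 library cut the calls most, to 432 higher and 69 lower without the 15 °C library and to 398 and 67 without the 25 °C library, and the math-33 medians over those genes were 0.87 and 0.88 upward and -0.990 and -0.997 downward. Without an N2 library (1003 and 189 at 15 °C, 967 and 189 at 25 °C) or a daf-16;daf-2 library (1166 and 289, 1139 and 294) the counts were also over 1.5 times smaller.

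**Figure D5:**
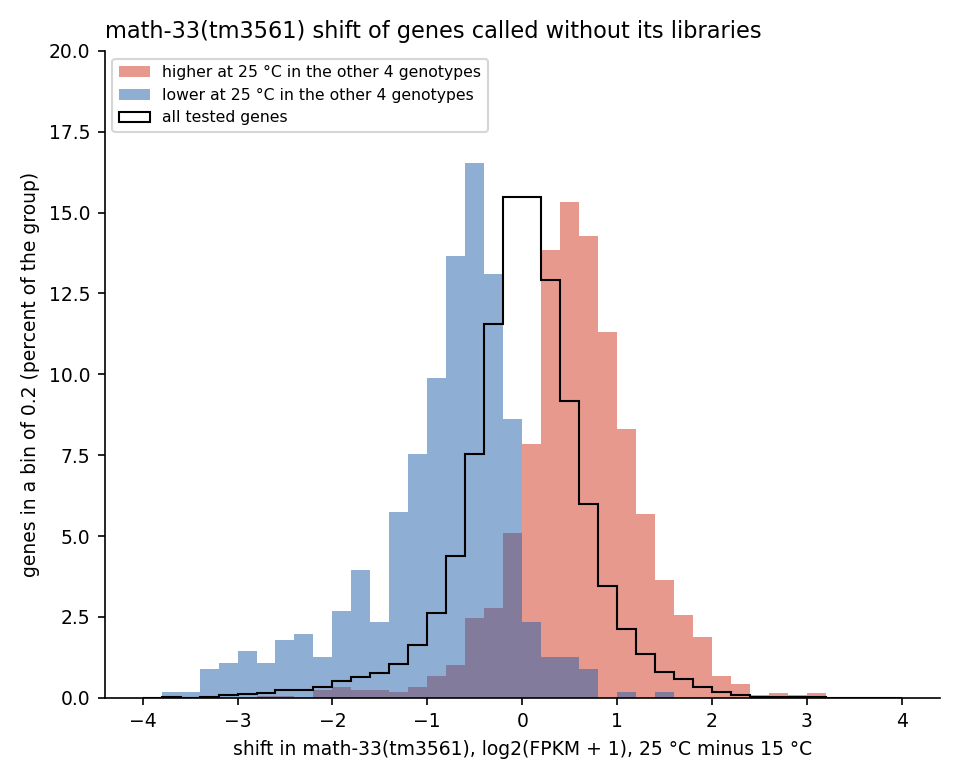
Shift in math-33(tm3561) (horizontal axis, log2(FPKM + 1), 25 °C minus 15 °C) of 2061 genes called higher and 557 called lower at 25 °C in the other 4 genotypes, and of all 14760 tested genes (line), as percent of each group per bin of 0.2. The group called higher sits mostly to the right of 0, with a median of 0.59 and a small tail under -1, and the group called lower sits to the left, with a median of -0.67.

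Of the 10 genes with the largest shared downward shifts, all were lower at 25 °C in math-33, 3 of them by more than 2 log2 units. The aspartyl protease gene asp-12 went from 85.9 to 7.98 FPKM in math-33, 83.4 to 3.75 in N2, 109.2 to 10.1 in daf-2, 40.5 to 7.03 in daf-2;math-33, and 62.3 to 5.78 in daf-16;daf-2, so every 25 °C library was below every 15 °C library. The acyl-CoA dehydrogenase gene acdh-2 was at 27.4 and 3.51 FPKM (shift -2.65, others -4.68 to -1.84). The stearoyl-CoA desaturase gene fat-7, needed for membrane fluidity in the cold, was at 8.95 and 0.918 FPKM, 10.1-fold lower (5.77 to 19.04), with shifts of -2.24 to -1.69 in the others. The other 7 had shifts of -1.68 to -0.97 in math-33, nearer 0 than their shared shifts of -2.59 to -2.04. The shifts of the other 4 genotypes chose these genes, so the 2 are not measured on equal terms. C37C3.10 (5.48 and 1.04 FPKM), nspc-18 (9.79 and 2.95), clc-11 (1.48 and 0.266) and nssp-29 (3.48 and 1.12) were less shifted in math-33 than in any other genotype, while hrg-3 (2.85 and 0.766 FPKM), Y41C4A.11 (29.3 and 8.47) and F48G7.8 (7.53 and 2.33) were within the range of the others.

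Upward, the paralogs pud-3 and pud-4 differed less in math-33. The genes with the largest shared upward shifts were likewise chosen by the other genotypes, so their shifts are not compared on equal terms. pud-4 went from 5.99 to 13.3 FPKM in math-33, 0.692 to 31.4 in N2, 15.2 to 609.7 in daf-2, 9.39 to 49.4 in daf-2;math-33, and 6.94 to 70.5 in daf-16;daf-2. The math-33 library was the lowest of the 25 °C libraries, with a shift of 1.03 against 2.28 to 5.24. pud-3 had 8.52 and 16.8 FPKM (shift 0.90, others 2.58 to 5.01). The collagen genes col-95 (66.4 and 147.9 FPKM, shift 1.14, others 1.52 to 4.15) and col-101 (178.0 and 539.9, shift 1.60, others 1.68 to 3.61) and the cation ATPase gene catp-3 (9.87 and 20.7 FPKM) were also less shifted in math-33 than in any other genotype. At 15 °C math-33 was the highest genotype for both collagens (others 6.77 to 27.5 FPKM for col-95 and 24.7 to 95.1 for col-101), and at 25 °C its library was still the highest of the 10. The immune gene sysm-1, named T24B8.5 in the table, was shifted as in the others (19.4 and 166.7 FPKM, 8.51-fold higher, 6.69 to 10.98; shift 3.04, others 1.84 to 3.44), as was anmt-3 (9.14 and 68.6 FPKM, shift 2.78, others 2.27 to 3.05).

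The 10 lowest shifts of all tested genes were those of F57H12.6, fkb-5, lpr-4, lpr-3, F12F6.17, sym-1, ins-35, asp-12, wrt-10 and mlt-11. Among them, lpr-3, sym-1, wrt-10 and mlt-11 belong to the lists of molting, apical matrix or hedgehog-related genes. By position F12F6.17 overlaps col-128, a lower col gene named above, so these may not be separate observations. F57H12.6 went from 65.7 to 3.96 FPKM (16.6-fold, 11.9 to 23.7). The prolyl isomerase gene fkb-5, of the secretory pathway, went from 127.9 to 9.15 (13.98-fold, 11.5 to 17.1), where the other genotypes had shifts of -1.71 to -0.72. sym-1, which encodes a leucine-rich repeat protein of the apical matrix, went from 266.1 to 25.8 FPKM (10.3-fold, 9.59 to 11.1). The 10 highest were rpr-1, T16G1.13, Y38E10A.14, sysm-1, ssp-10, ZK813.2, anmt-3, F43G6.7, K07A1.6 and R09E10.2. The first, the noncoding RNA gene rpr-1, rests on 3 pairs at 15 °C and 68 at 25 °C (18.3-fold, 6.0007 to 90.9). The libraries were selected for poly(A), so its values may not give the level of that RNA. ssp-10 of the sperm families was at 12.8 and 109.5 FPKM (8.54-fold, 6.44 to 11.5).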

How the data were processed

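Polyadenylated RNA of whole nematodes was sequenced as stranded, paired-end libraries, per the labels' protocols. The deposited values are FPKM for 47467 transcripts in 10 libraries. The genome build ce10 and the tools HOMER, STAR and edgeR stand in the submitters' processing notes, with no order or versions. The assignment of reads common to several genes was not given in the sources used here. Levels of the vit, col, msp, nspd and ssp families, and of genes that overlap, are uncertain for that reason. Coordinates are those of the deposited table.

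Transcripts without a gene name (1104, with 1.723 to 1.974% of a library's summed FPKM) were left out. Where a symbol had several transcripts, the one with the highest mean FPKM of at least 200 bases was used. Of 40857 symbols, 40483 matched the RefSeq table of assembly WBcel235, used for current names only. Values were analysed as log2(FPKM + 1), which understates the change of weakly expressed genes, after a filter of 1 FPKM in at least 2 libraries. A difference of 1 log2 unit was counted.

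Depth was recovered from FPKM times length in transcripts of 300 to 1500 bases: 100% of these values were whole multiples of 1 step per library, within rounding plus 0.01%. Fold intervals are exact 95% Clopper-Pearson intervals on read pairs, and they and the floor of 3 pairs cover counting error only. Depth sets the width of the intervals, which is why folds of genes under 1 FPKM are wide.

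The 2 math-33(tm3561) libraries were compared without a test, and 4 other genotypes (8 libraries) were compared in the same way. limma 3.58.1 in R 4.3.3, with a trend in the prior, gave the 2 tests across 14760 genes, with Benjamini-Hochberg adjustment at 0.05 over all genes. Its p-values measure the spread between 4 genotypes, not between replicates. Tested on simulated data, the test of the shared shift found 84% of shifts of 2 log2 units. Tables were handled with Python 3.11.15, pandas 2.3.3 and scipy 1.17.1.

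The members, the 48 gene lists and the tests were chosen with earlier results of these data known. Named were the 10 highest and 10 lowest shifts, the genes limma called, by size, the extremes of each list described, members with a known role, and a set of marker genes. Alternatives were another pseudocount, filter, scaling, transcript choice and prior, N2 as the only comparator, each library left out, and a fit with all 5 genotypes in the temperature term, the last chosen after seeing the data.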

Additional observations from a re-analysis of the deposited data

Results flagged for a closer look

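Of all tested genes, 6 had a shift between 15 and 25 °C in math-33(tm3561) that differed from the shift of the other 4 genotypes, by limma over all 14760 genes. The difference was -3.66 log2 units for col-71, -3.56 for E01G4.6, -3.51 for Y11D7A.5, -2.995 for col-48, -2.84 for lon-3 and -2.64 for col-109. In math-33 all 6 were lower at 25 °C. In the other genotypes the 5 except lon-3 were higher at 25 °C in every pair, and lon-3 lay between -0.25 and 0.36. Each rests on 1 math-33 pair.

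Over 14 alternative settings the limma adjusted p of E01G4.6 ranged from 0.0184 to 0.123, that of Y11D7A.5 from 0.0184 to 0.117, that of col-109 from 0.0204 to 0.123, that of col-48 from 0.011 to 0.117, that of col-71 from 0.0184 to 0.123 and that of lon-3 from 0.0204 to 0.123. It passed the threshold in 5 or 6 of the 14 for each gene. The 14 do not include the fit without a trend in the prior or that against N2 alone, in which no gene passed. The sizes moved little, from -3.84 to -3.49 in col-71 and from -2.78 to -2.46 in col-109.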

How the results depend on the processing

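Each group holds 1 library and the labels give no replicate numbers, so no replicate block could be added; the genotype term of the limma models already pairs the 15 and 25 °C libraries of a genotype. In math-33(tm3561) the count of genes 1 log2 unit higher and lower was 1324 and 1431 with a pseudocount of 0.1, and 48 and 185 at 2 log2 units. For a math-33 shift unlike that of the other genotypes, limma called 1 gene higher and 51 lower with a pseudocount of 0.1, 125 and 132 with no filter, 1 and 55 with a filter of 5 FPKM, and 1 and 23 with quantile normalization. With no filter, 199 of the called genes were at 0 in all 8 other libraries, so no spread was seen there. That setting kept 4 of the 6 main calls. Lower calls were 0 with transcripts under 200 bases kept, 0 without a trend, 0 against N2 alone, and 0 to 15 with 1 library left out. For the shift shared by the other genotypes the counts were 0 and 0 with no filter, 1279 and 1615 with median centring, 1260 and 1214 with quantile normalization, and 398 to 1948 and 67 to 490 with 1 library left out. With 5 genotypes in the term, 864 were lower. The math-33 median over genes called higher elsewhere was 0.608 to 0.876 with 1 library left out. Over genes called lower it was -0.755 with a pseudocount of 0.1, -0.493 with centring, -0.564 with quantile normalization, -0.726 with short transcripts kept, and -0.755 to -0.997 with 1 library left out; with no filter there was no value. The causes were not tested, except that fewer libraries leave fewer degrees of freedom. Some math-33 values near 0 changed sign: under quantile normalization the list medians of the insulin/IGF core (-0.013), Argonautes (-0.081), acyl-CoA dehydrogenases (-0.029) and cytosolic ribosomal proteins (-0.0082) and the shift of hsf-1 (-0.028), and under median centring Argonautes (-0.012) and bli-5 (-0.016). All other tabulated shifts of named genes and list medians of math-33 kept their direction under a pseudocount of 0.1 and both scalings. Depth limits genes under about 1 FPKM.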

Other observations

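Members of other families also differed between the math-33(tm3561) libraries, given here as values beside the 5.54% of all tested genes that were higher and the 5.86% that were lower. Of 9 cadherin genes 5 were lower by 1 log2 unit and 0 higher, with cdh-7 at 15.7 and 1.65 FPKM, cdh-12 at 25.9 and 3.28, and cdh-10 at 22.3 and 2.98. Of 96 neuropeptide genes 9 were lower and 0 higher by 1 log2 unit. The epidermal antimicrobial peptide genes nlp-30 and nlp-31 were at 34.7 and 75.6 FPKM at 15 °C and at 6.65 and 19.9 at 25 °C. The neuropeptide gene flp-24 was at 22.6 and 45.6 FPKM, a shift of 0.98 where the other genotypes had -0.81 to -0.12.

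Of 121 C-type lectin genes, which encode secreted or membrane sugar-binding proteins, 12 were higher and 9 lower. clec-180 was at 46.5 and 6.80 FPKM and clec-87, a gene of the eggshell proteoglycans, at 193.0 and 550.0. Of 18 lipase genes 5 were lower and 1 higher, with lipl-6 at 12.4 and 1.34 FPKM. Of 100 glutathione transferase and UDP-glucuronosyltransferase genes 6 were lower and 3 higher, shares close to or under those of all tested genes, with ugt-57 at 12.4 and 1.77 FPKM and gst-30 at 0.869 and 7.31. The lysozyme gene lys-4 was at 220.5 and 68.3 FPKM, and its shift of -1.68 lay inside the -2.97 to -1.199 of the other genotypes.

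Grouping genes by the letters of their names, chosen after the values were seen, gave the largest shares of lower genes in the bus family, named for altered bacterial adhesion to the surface, with 10 of 14 lower and a median of -1.52. The wrt family had 6 of 10 lower, the dpy family 14 of 25, the cdh family 5 of 9, the fkb and mlt families 4 of 8 each and the ptr family 11 of 23. Genes on the X chromosome made up 22.1% of the lower genes and 14.1% of all tested genes. The median transcript length was 589 bases for the higher genes, 964 for the lower genes and 1017 for all tested genes.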
